A study of Caenorhabditis elegans with 2 samples.

Results

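The 81 genes described here are named for the proteins of the cytosolic ribosome of Caenorhabditis elegans. They were chosen by symbol, as the protein-coding genes whose names begin with rpl-, rps- or rla-, out of 19973 nuclear protein-coding genes in the Ensembl release 115 annotation. Of these, 47 are rpl- genes and 3 are rla- genes, counted together here as 50 large-subunit genes, and 31 are rps- genes of the small subunit. Chromatin immunoprecipitation followed by sequencing (ChIP-seq) had been carried out on whole young adult worms of strain RW12210, aged 65 h. Their hmg-1.2 gene on chromosome III carries a TY1, EGFP and 3xFLAG insertion (st12210) made with CRISPR. All animals came from larvae starved after bleaching, and both samples, biological replicates 1 and 2, belong to 1 group with the same genotype. No comparison between conditions is therefore possible, and the peaks come from all tissues of the animal mixed together.

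The ribosome joins a small subunit, which reads the messenger RNA, to a large subunit, which forms the peptide bonds, and the rla- genes encode the acidic stalk proteins of the large subunit that contact elongation factors. Ribosomal protein genes are short, transcribed at high levels and needed in matched amounts. HMG-1.2 belongs to the proteins with HMG boxes, domains that bind and bend DNA with little dependence on its sequence. In C. elegans many messenger RNAs receive a spliced leader by trans-splicing, which removes the first bases of the transcript. An annotated 5′ end can therefore be the splice acceptor and not the place where transcription starts.

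The summit is the base of highest signal in a peak, and the sequences around it are shown first because the same short words recur there. Each line below spans 70 bp either side of the summit, read 5′ to 3′ on the strand of the gene, from the ce11 (WBcel235) reference genome. The first 8 genes are those with the highest authors' signal among bound members whose sequences could be shown. The genes rpl-6 and rpl-39 were added after their sequences were seen. Left out were rpl-41.2, rps-15, rps-19 and rps-20, although their signals were higher than that of rpl-15. Within 100 bp of the summit, rpl-41.2 and rps-20 had a recurrent word, and rps-15 and rps-19 had none. The lines are therefore examples and do not give the share of strong peaks with such words. Capitals mark any of 5 words of 8 bases, on either strand, that are described further on: element 1 is GGCCTAAA, element 2 ATACTCAG, element 3 GCGAGACC, element 4 CGATTTAC and element 5 TACGGTAA. The window of rpl-7A is chrIV:4390586-4390726 on the minus strand, that of rpl-29 chrIV:13881876-13882016 on the plus strand, and that of rpl-3 chrIII:3867513-3867653 on the plus strand. That of rps-9 is chrII:11126580-11126720 on the minus strand, that of rpl-20 chrIV:4749997-4750137 on the minus strand, and that of rpl-12 chrIV:13240601-13240741 on the minus strand. The window of rps-12 is chrIII:5679069-5679209 on the plus strand and that of rpl-15 chrIV:654849-654989 on the minus strand. The window of rpl-6 is chrIII:7208042-7208182 on the plus strand, and that of rpl-39, whose summit also lies in the window of rps-30, is chrV:7776278-7776418 on the minus strand.
rpl-7A: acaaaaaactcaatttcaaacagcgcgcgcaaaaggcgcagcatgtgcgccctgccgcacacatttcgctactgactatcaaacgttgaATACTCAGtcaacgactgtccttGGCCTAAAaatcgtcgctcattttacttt
rpl-29: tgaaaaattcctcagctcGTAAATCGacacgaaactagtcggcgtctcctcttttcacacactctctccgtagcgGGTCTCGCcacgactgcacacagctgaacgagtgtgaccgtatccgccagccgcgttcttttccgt
rpl-3: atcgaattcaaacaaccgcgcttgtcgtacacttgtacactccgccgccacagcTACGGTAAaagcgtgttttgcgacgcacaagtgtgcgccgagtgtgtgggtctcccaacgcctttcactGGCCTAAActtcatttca
rps-9: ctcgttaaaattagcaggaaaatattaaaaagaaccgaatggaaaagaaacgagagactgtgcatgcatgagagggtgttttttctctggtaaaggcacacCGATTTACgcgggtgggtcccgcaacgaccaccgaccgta
rpl-20: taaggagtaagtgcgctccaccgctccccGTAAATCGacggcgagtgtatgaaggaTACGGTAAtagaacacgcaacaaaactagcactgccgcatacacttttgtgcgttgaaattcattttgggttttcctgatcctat
rpl-12: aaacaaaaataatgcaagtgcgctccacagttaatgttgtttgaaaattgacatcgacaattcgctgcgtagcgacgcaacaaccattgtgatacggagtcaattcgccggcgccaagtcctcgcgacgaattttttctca
rps-12: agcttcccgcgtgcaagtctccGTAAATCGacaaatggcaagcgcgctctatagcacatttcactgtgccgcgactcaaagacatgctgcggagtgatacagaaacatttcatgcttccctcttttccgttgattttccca
rpl-15: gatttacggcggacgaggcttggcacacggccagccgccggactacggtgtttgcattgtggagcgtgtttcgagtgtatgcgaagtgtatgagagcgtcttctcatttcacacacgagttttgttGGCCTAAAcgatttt
rpl-6: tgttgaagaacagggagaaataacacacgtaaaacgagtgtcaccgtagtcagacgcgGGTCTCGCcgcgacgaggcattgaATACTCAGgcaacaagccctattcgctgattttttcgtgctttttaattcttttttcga
rpl-39: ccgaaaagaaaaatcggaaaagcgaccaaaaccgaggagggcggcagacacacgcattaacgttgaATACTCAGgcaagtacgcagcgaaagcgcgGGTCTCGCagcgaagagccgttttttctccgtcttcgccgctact

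Most ribosomal protein genes had a peak of tagged HMG-1.2 at their promoter. A gene was counted as bound when a peak summit fell in its promoter window, which reached from 500 bp before an annotated 5′ end to 100 bp after it. In the authors' conservative set over both replicates, 57 of the 81 genes were bound (70.4%), against 1877 of 19892 other protein-coding genes (9.44%). Over all protein-coding genes that share was 9.68%. The replicates' own thresholded lists gave 53 genes (65.4%) in replicate 1 and 63 (77.8%) in replicate 2, a mean of 71.6% ± 8.73 (SD, n = 2). The share of all protein-coding genes bound in those lists was 6.91% in replicate 1 and 13.3% in replicate 2. In both lists 51 ribosomal protein genes were bound (63%), beside 6.1% of all protein-coding genes, and in at least 1 of them 65 were (80.2%), against 13.8% of other protein-coding genes. The authors' other thresholded set over both replicates held 63 of the genes (77.8%), beside 13.7% of all protein-coding genes. It lacked rla-1 and rpl-11.2, which were bound in the conservative set. Genes are not replicates, so these shares are descriptions and carry no p-value. The labels do not state that the replicates came from separate cultures, so the SD may cover technical spread only.

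**Figure D1:**
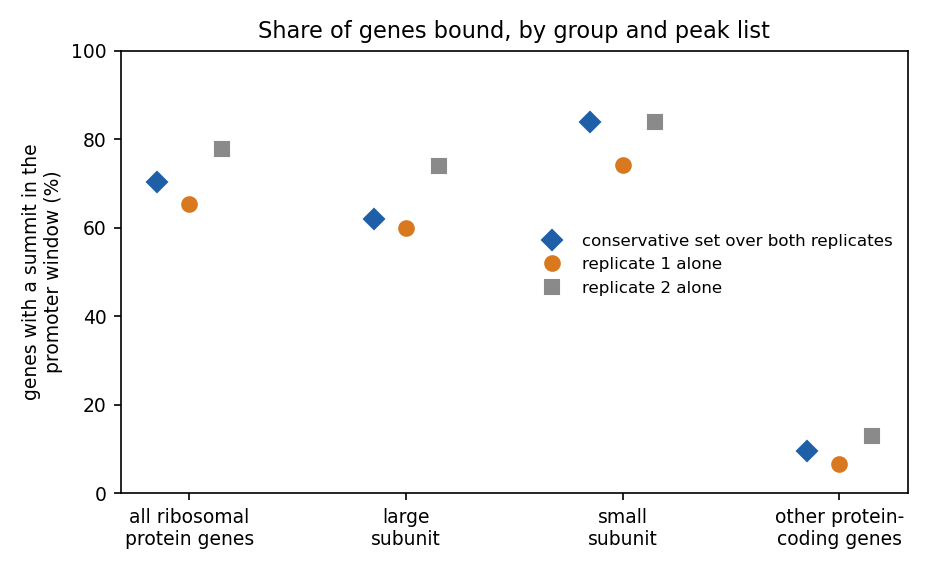
Percent of genes (vertical axis) with a summit in the promoter window, for all 81 ribosomal protein genes, the 50 large-subunit genes, the 31 small-subunit genes and the 19892 other protein-coding genes. Each point is 1 peak list (conservative set, replicate 1, replicate 2); every ribosomal point lies at or above 60%, and the points of the other genes lie at 13% or below.

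Both subunits were represented. Among large-subunit genes 31 of 50 were bound (62%), with 60% in replicate 1 and 74% in replicate 2, a mean of 67% ± 9.9 (SD, n = 2). Among small-subunit genes 26 of 31 were bound (83.9%), with 74.2% in replicate 1 and 83.9% in replicate 2, a mean of 79% ± 6.84 (SD, n = 2). Large minus small came to -21.9 percentage points in the conservative set, -14.2 in replicate 1, -9.87 in replicate 2 and -20.3 in the other thresholded set. With the narrower window or the nearest 5′ end alone, both described further on, it shrank to -4.58 and -5.61 points. The large-subunit share was the lower one under each of these settings, while the mean shares of the replicates differed by about the spread between them. In the ranked list over both replicates, described further on, the shares were close, at 88% for the large and 90.3% for the small subunit. That list goes far below the score threshold and held a summit for 38.3% of all protein-coding genes. Of the rla- genes, only rla-1 was bound in the conservative set. The other thresholded set held rla-0 and not rla-1, replicate 2's list held both, and replicate 1's list held neither. By chromosome, bound genes numbered 18 of 25 on chromosome I, 4 of 10 on II, 15 of 18 on III, 13 of 18 on IV, 6 of 8 on V and 1 of 2 on X. The ribosomal share was lowest on chromosome II, at 40%, and 50% to 83.3% on the others. Of other protein-coding genes 13.7% were bound on I, 9.22% on II, 13.3% on III, 9.41% on IV, 6.32% on V and 7.26% on X.

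The summits lay well upstream of the annotated 5′ ends, in a narrow range. The median distance over the 57 bound genes was -288 bp (negative values are upstream), with quartiles of -348 and -249 bp and extremes of -436 and 38 bp. Of the 57, 48 (84.2%) had their summit between 450 and 200 bp upstream. In the other bound protein-coding genes the median was -189 bp, the quartiles were -301 and -103 bp, and 42.6% lay in the same range. The offset had the same direction in each replicate's own list, with medians of -295 bp for ribosomal protein genes against -188 bp for other genes in replicate 1, and -289 bp against -183 bp in replicate 2. Large-subunit genes had a median of -286 bp and small-subunit genes of -288 bp, so the subunits did not differ in position beyond the spread of their genes. A window that reaches 1000 bp upstream and 200 bp downstream left the median over the distinct ribosomal summits at -288 bp, against -287 bp in the standard window.

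**Figure D2:**
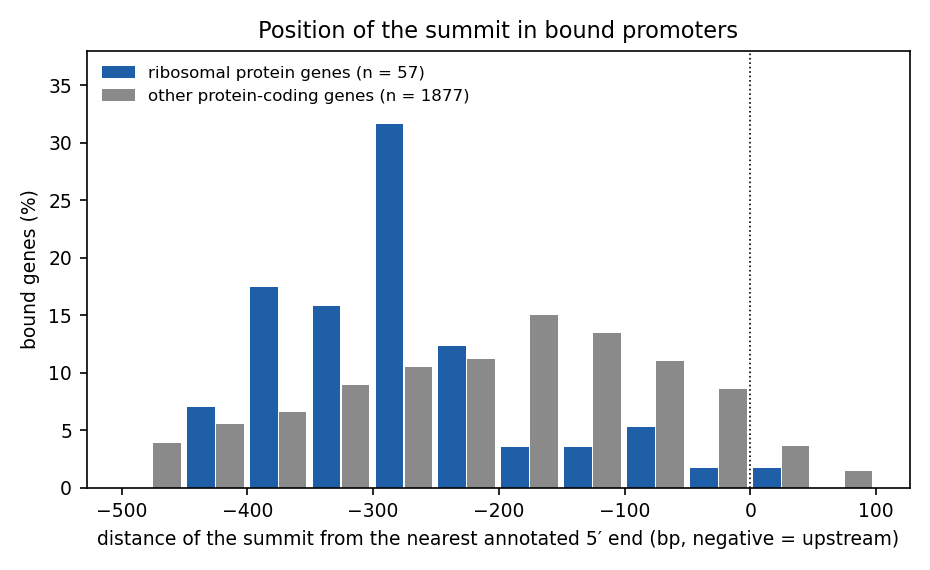
Distance of the summit from the nearest annotated 5′ end in bins of 50 bp (horizontal axis, bp) against the percent of bound genes in each bin, for 57 ribosomal protein genes and 1877 other protein-coding genes. The tallest ribosomal bar, 31.6%, stands at -300 to -250 bp, and the tallest bar of the other genes, 15%, at -200 to -150 bp.

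Because so many summits lay far upstream, the count of bound genes depended on how far the promoter window reached. A window of 250 bp upstream to 50 bp downstream held a summit for 16 ribosomal protein genes (19.8%), beside 6.07% of all protein-coding genes. When each summit was given only to the nearest 5′ end of a protein-coding gene, 39 ribosomal protein genes were bound (48.1%), beside 8.06% of all protein-coding genes. The trans-splice acceptor TTTCAG, searched on the gene's strand in the last 10 bases before a 5′ end, was present for 45 of the 81 genes (55.6%) and for 18.3% of other protein-coding genes. Bound ribosomal protein genes with this acceptor had a median summit distance of -284 bp (n = 32), and those without it had -297 bp (n = 25). Other bound genes with the acceptor had a median of -222.5 bp (n = 614). Transcription starts were not measured here, so these distances are to annotated ends only.

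The replicates placed the summits of these genes at nearly the same base. For the 51 genes bound in both lists, the summits of replicates 1 and 2 lay a median of 7 bp apart, at most 36 bp, and 43 of them (84.3%) were within 20 bp. For the 1167 other protein-coding genes bound in both, the median was 11 bp, 68.1% were within 20 bp and the largest gap was 7775 bp. The best-ranked peak of a gene was taken in each list, so it need not be the same peak in both. Gaps were not compared at like signal. At rps-6, whose product is the classic substrate of S6 kinase, both summits fell on the same base at -334 bp. At rps-15 both lay at -361 bp. The widest gap, 36 bp, was at rpl-31, with -279 bp in replicate 1 and -243 bp in replicate 2.

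Peaks at ribosomal protein genes were among the stronger ones of the list. The deposited signal has no stated scale and serves here only to rank peaks within 1 list. The 54 distinct summits at these genes had a median signal of 551, against 244 for the 1628 summits at other protein-coding promoters and 240 over all 4149 peaks. Of the 54, 31 (57.4%) stood in the top 25% of the list and 3 in the lowest 25%, while 26.7% of the other promoter summits stood in the top 25%. In replicate 1 the median was 135 for ribosomal summits and 95.3 for other promoter summits, and in replicate 2 it was 369 for ribosomal summits and 129 for the others. By gene, the median signal was 513 for large-subunit genes (quartiles 264 and 860) and 616 for small-subunit genes (quartiles 358 and 875), and these ranges overlapped widely.

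Among large-subunit genes, rpl-7A and rpl-41.2 had the strongest peaks. The peak at rpl-7A (WBGene00004419, chromosome IV, 4390476 to 4390820) had a signal of 3065 and rank 31, with rank 44 in replicate 1 and 36 in replicate 2. Its summit lay at -66 bp, closer to the gene than most, in the 253 bp between rpl-7A and the divergent gene set-21. The peak of rpl-41.2 (WBGene00023068, chromosome I, 4789797 to 4790146), which encodes the shortest ribosomal protein, had a signal of 2809 and rank 37, with ranks 65 and 41 in replicates 1 and 2 and a summit at -317 bp. Both were thus near the top of all 3 lists.

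The next large-subunit genes were rpl-29, rpl-3, rpl-20, rpl-12 and rpl-15. The peak of rpl-29 (chromosome IV, 13881795 to 13882105) had a signal of 1842 and ranks 103 and 153 in replicates 1 and 2. That of rpl-3 (chromosome III, 3867418 to 3867731), whose product reaches towards the peptidyl transferase centre, had a signal of 1767 and ranks 99 and 194. The peak of rpl-20 (chromosome IV, 4749925 to 4750234) had a signal of 1556 and ranks 124 and 245. These 3 summits lay at -279, -271 and -289 bp, close to the median of the whole family. The peak of rpl-12 (chromosome IV, 13240510 to 13240828), whose product forms the base of the stalk, had a signal of 1373 and ranks 190 and 246. Its summit was at -20 bp, the nearest of all upstream summits, and is shared with lin-54, a DNA-binding subunit of the DREAM complex 392 bp away. The peak of rpl-15 (chromosome IV, 654770 to 655048) had a signal of 1039, ranks 267 and 407 and a summit at -343 bp.

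Among small-subunit genes the strongest peaks were at rps-9, rps-15, rps-19, rps-12 and rps-20. The peak of rps-9 (chromosome II, 11126499 to 11126800) had its summit at -288 bp and a signal of 1598. It ranked 675 of 3340 in replicate 1 and 78 of 5333 in replicate 2, so its place rests mainly on replicate 2. The peak of rps-15 (chromosome I, 8816398 to 8816701) had a signal of 1450 and ranks 179 and 228 in replicates 1 and 2. The peaks of rps-19 (chromosome I, 9625931 to 9626211), whose human counterpart is mutated in Diamond-Blackfan anaemia, and rps-12 (chromosome III, 5679004 to 5679282) had signals of 1145 and 1139. Their ranks in replicates 1 and 2 were 249 and 340 for rps-19, and 228 and 366 for rps-12. The peak of rps-20 (chromosome I, 14469186 to 14469463) had a signal of 1084, ranks 377 and 285 and a summit at -225 bp. Apart from rps-9, these genes held similar places in both replicates.

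**Figure D3:**
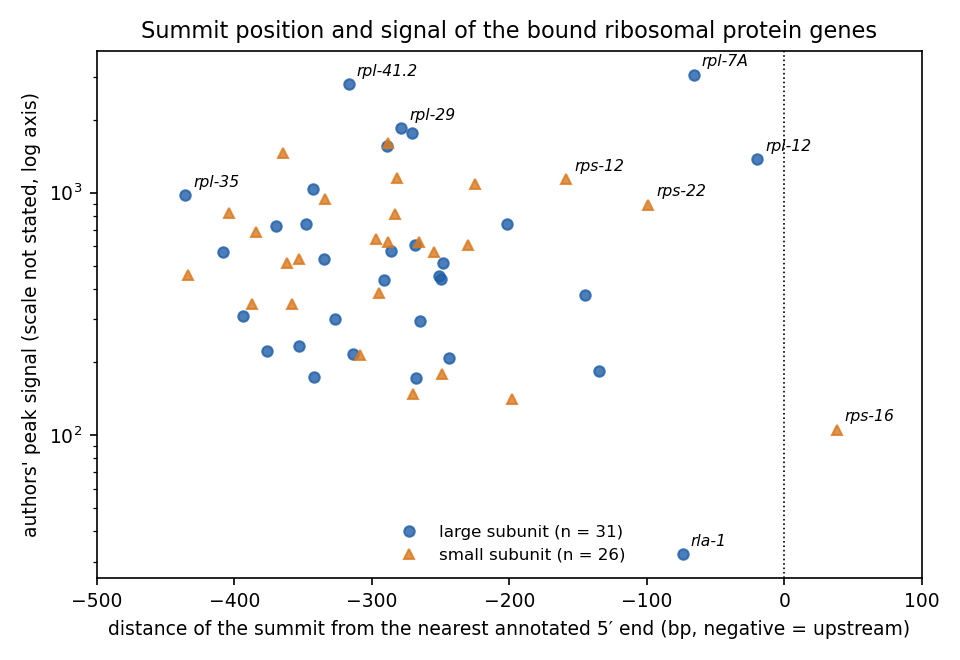
Summit distance from the nearest annotated 5′ end (horizontal axis, bp) against the authors' peak signal (vertical log axis) for the 31 bound large-subunit and 26 bound small-subunit genes, 1 point per gene. Most points of both subunits lie between 450 and 200 bp upstream; rpl-7A, rpl-12, rps-12 and rps-22 combine a high signal with a summit closer to the gene.

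**Figure D4:**
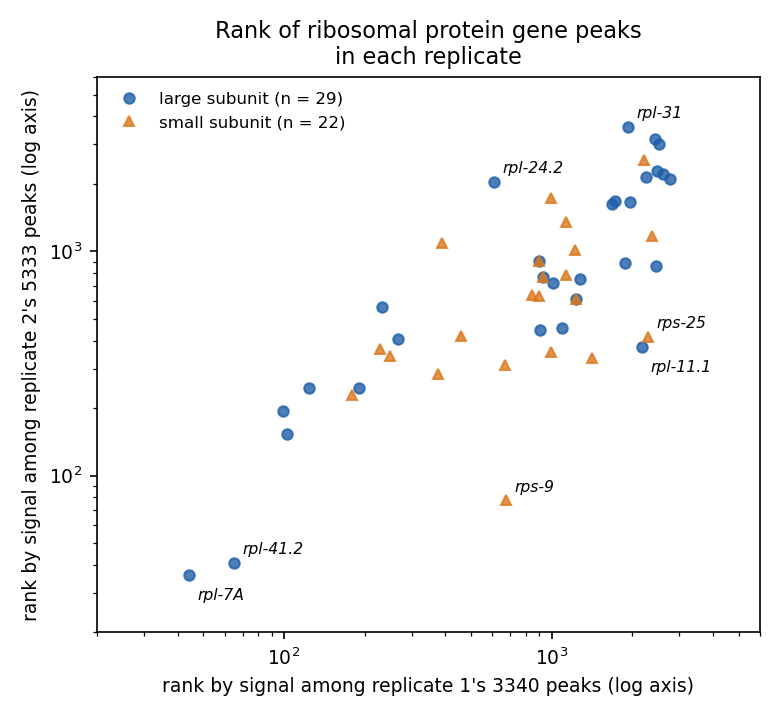
Rank by signal in replicate 1 (horizontal log axis, of 3340 peaks) against rank in replicate 2 (vertical log axis, of 5333 peaks) for the 51 ribosomal protein genes bound in both lists, 1 point per gene, low ranks being the strongest peaks. The genes rpl-7A and rpl-41.2 are near the top of both lists, and rps-9, rpl-11.1 and rps-25 rank far higher in replicate 2 than in replicate 1.

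The weakest bound genes were rla-1, rps-16 and rps-13. The stalk gene rla-1 (peak at chromosome I, 2069484 to 2069813) had a signal of 32.3, rank 4043 of 4149 and a summit at -74 bp. It was in replicate 2's own list, at rank 5172, and not in replicate 1's. The peak of rps-16 (chromosome V, 15000338 to 15000667) had a signal of 105 and rank 3722, with its summit inside the gene at 38 bp. It was in replicate 1's list, at rank 2611 and 66 bp, and not in replicate 2's. The gene rps-13 (peak at chromosome III, 6375030 to 6375359) had a signal of 141, rank 3166 and a summit at -198 bp, and was in replicate 2's list alone, at rank 3244. Besides these 3, rpl-9, rps-8 and rps-17 were bound in the conservative set and in replicate 2's list without being in replicate 1's.

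The 24 unbound genes were 19 of the large subunit and 5 of the small. In the ranked list over both replicates, which holds 52039 peaks and goes far below the score threshold, 15 of the 24 had a summit in the window. With these, 72 of the 81 genes (88.9%) had a ranked summit, beside 38.3% of all protein-coding genes. The ranked summits of the unbound genes had a median distance of -381 bp, and 13 of the 15 lay between 450 and 200 bp upstream, the range that holds most bound genes. Such distances were not taken for the 5707 other unbound protein-coding genes with a ranked summit. The match of ranges is therefore not shown to be particular to these genes. The highest in signal of the 15 was rpl-36.A, at rank 3434 of the ranked list, with a summit at -317 bp. It was followed by rps-7 at rank 3747 and -283 bp, rpl-17 at rank 4147 and -394 bp, rpl-26 at rank 4342 and -258 bp, and rla-0, which encodes the protein that anchors the stalk, at rank 4628 and -262 bp. Their scores were 764, 445, 634, 720 and 800, where no conservative peak scored under 830. All 5 were also in the other thresholded set. The genes rla-0, rpl-17, rpl-26, rpl-33, rpl-34, rpl-36.A and rps-7 were bound in replicate 2's own list, and rpl-16 in replicate 1's. The remaining 16 were in neither. They were rla-2, rpl-2, rpl-10, rpl-18, rpl-19, rpl-25.1, rpl-27, rpl-30, rpl-37, rpl-41.1, rpl-42, rpl-43, rps-2, rps-18, rps-27 and rps-29.

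Some unbound genes had a conservative summit in their neighbourhood but outside the window. On the upstream side the nearest lay at -536 bp from rps-29 and at -647 bp from rps-18. The divergent neighbour of rps-29, snt-2, 566 bp away, was itself bound. On the downstream side the nearest lay at 442 bp from rpl-43 and 483 bp from rpl-30, well beyond the limit of 100 bp. The most upstream summit inside the window was that of rpl-35, at -436 bp. For rps-18 the ranked list had a further summit at -440 bp, with a score of 600, so a weaker peak lay within the window.

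In 4 pairs the symbols differ in the last digit alone. Both genes were bound in 2 of these pairs and a single one in the other 2. For rpl-11, whose product contacts the smallest ribosomal RNA together with that of rpl-5, both genes were bound, rpl-11.1 with a signal of 741 at -202 bp and rpl-11.2 with 310 at -394 bp. The genes rpl-24.1, with a signal of 513 at -248 bp, and rpl-24.2, with 377 at -145 bp, were both bound too. They are not 2 copies of 1 ribosomal protein gene: rpl-24.2 resembles a ribosome assembly factor of other species and is counted here by the symbol rule. Of the rpl-25 pair, rpl-25.2 was bound with a signal of 184 at -135 bp, while rpl-25.1 had no summit in the ranked list. Of the rpl-41 pair, rpl-41.2 had the second strongest peak of the family and rpl-41.1 was not bound. These 2 genes are tandem neighbours, and the peak of rpl-41.2 lies 785 bp downstream of the 5′ end of rpl-41.1.

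Ribosomal protein genes often shared their summit with a neighbour. Of the 57 bound genes, 31 were bound through a summit that also lay in the window of another protein-coding gene. By summit, 28 of 54 (51.9%) lay in more than 1 protein-coding promoter window, against 313 of 1628 (19.2%) of the summits at other promoters. Gene layout differs too: a divergent neighbour stood within 1000 bp of 48 of the 81 ribosomal protein genes and of 3390 of 19892 others. Sharing was not compared between genes of like layout. At 3 shared summits both genes were ribosomal, and each time a large-subunit and a small-subunit gene stood head to head. The pair rpl-36 and rps-14, 662 bp apart on chromosome III, shared a summit with a signal of 567, at -408 and -255 bp from these genes. The pair rpl-39 and rps-30, 498 bp apart on chromosome V, shared one with a signal of 607, at -269 and -230 bp. The product of rpl-39 lines the exit tunnel for the growing peptide. The pair rpl-24.1 and rps-10, 609 bp apart on chromosome I, shared one with a signal of 513, at -248 and -362 bp. All 3 shared summits were in both replicates' lists, 5, 30 and 3 bp apart between the replicates.

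The other 25 genes shared their summit with a gene outside the family. These partners included mrpl-49, which encodes a mitochondrial ribosomal protein and stands head to head with rpl-28, and lpd-7, a ribosome assembly gene next to rpl-9. Others were ify-1 (securin) next to rpl-22, lsm-1 (mRNA decay) next to rps-9, polh-1 (a translesion DNA polymerase) next to rps-22, ska-3 (a kinetochore protein) next to rps-12 and dpm-3 (dolichol-phosphate mannose synthesis) next to rps-23. The peaks do not show which gene of such a pair they belong to. Summits of 6 bound genes also lay in the window of a small RNA gene, and 26 bound genes shared their summit with no protein-coding, tRNA, snRNA, snoRNA or miRNA gene.

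Bound genes were also counted by the strand and distance of the next gene upstream. Of the 55 genes with a divergent neighbour, 39 were bound (70.9%), and of the 26 with a neighbour on the same strand, 18 were (69.2%). Of all protein-coding genes, 9.68% were bound. Within the same-strand genes, 15 of 17 with a gap of at least 500 bp were bound, 1 of 4 with a gap of 200 to 500 bp, and 2 of 5 with a gap under 200 bp. These classes are small. Other protein-coding genes were not counted for same-strand gaps of 200 bp or more, so the order is not shown to be particular to ribosomal protein genes. In C. elegans, genes so close on the same strand are often parts of operons, transcribed from the promoter of the first gene. The 5 genes with the short gaps were rla-1, rps-16, rpl-16, rpl-25.1 and rpl-27. The first 2 of these were bound, with 2 of the weakest signals of the family. The gene upstream of rps-16, fib-1, which encodes the nucleolar methyltransferase fibrillarin, had a bound promoter of its own with a signal of 301 at -64 bp. The genes upstream of rpl-16 (lias-1) and rpl-25.1 (glit-1) were bound as well, and those upstream of rla-1 (Y37E3.8) and rpl-27 (C53H9.2) were not. Of other protein-coding genes with a same-strand neighbour within 200 bp, 98 of 1865 (5.25%) were bound. With a divergent neighbour within 1000 bp, 34 of 48 ribosomal protein genes (70.8%) were bound, against 702 of 3390 other protein-coding genes (20.7%).

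Introns of ribosomal protein genes can hold genes for snoRNAs, which guide the modification of ribosomal RNA, or for miRNAs. Of the 14 members with such a gene inside, 11 were bound (78.6%), and of the 67 without, 46 were (68.7%), beside 9.68% of all protein-coding genes. Here inside means within the span of the gene on either strand, and other protein-coding hosts were not counted. The summits of rpl-4, rpl-7A, rpl-24.1 and rps-12 also lay in the window of a snoRNA gene inside the host, so the host and the snoRNA gene cannot be told apart there. Those of the other 7 bound hosts, such as rpl-6 at -335 bp and rpl-15 at -343 bp, did not.

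The sequences around the summits shared several short words. All words of 8 bases within 100 bp of the 54 ribosomal summits were counted on both strands, and 5 were kept that were frequent there and rare at the 1628 other promoter summits. The words were chosen for that difference, so their counts are a description and not a test, and a match is not a site or a cause. GGCCTAAA (element 1) was at 14 ribosomal summits (25.9%) and at 0.983% of the others. ATACTCAG (element 2) was at 12 (22.2%) and at 0.614% of the others. GCGAGACC (element 3) was at 15 (27.8%) and at 5.34%, CGATTTAC (element 4) at 11 (20.4%) and at 2.27%, and TACGGTAA (element 5) at 10 (18.5%) and at 1.78%. At least 1 of the 5 was at 41 of the 54 ribosomal summits (75.9%), against 157 of 1628 others (9.64%), and at least 2 of them were at 19 (35.2%), against 22 (1.35%). Among the strongest peaks rpl-12, rps-15 and rps-19 had none. Over whole promoter windows, taken at the outermost 5′ end, the shares among the 81 ribosomal genes and the 19892 other protein-coding genes were 28.4% and 1.67% for element 1, 16% and 0.865% for element 2, 28.4% and 2.45% for element 3, 21% and 2.55% for element 4, and 16% and 2.23% for element 5.

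The words took different places relative to the summit. Element 2 lay at the summit itself, with all 13 matches, counted per gene, between -0.5 and 33.5 bp and a median of 12.5 bp towards the gene. Element 3 was within 35 bp of the summit in 13 of 16 matches and stood on the strand opposite to the gene in 13 of 16. Element 5 had a median of 25.5 bp towards the gene. Element 1 lay on the gene side of the summit, at least 40 bp away in 14 of 16 matches, with a median of 61.5 bp, and 11 of the 16 were on the gene's strand. Element 4 lay on the far side, at least 30 bp upstream in 9 of 12 matches, with a median of -45.5 bp. The windows printed above show these arrangements, with elements 2 and 1 at rpl-7A, elements 5 and 1 at rpl-3, elements 4 and 3 at rpl-29 and elements 4 and 5 at rpl-20, in that order towards the gene. The window of rps-9 differs, with element 4 on the gene side, 34.5 bp from the summit, as it also is at rps-25 and rps-14. The match at rps-14 is the same site as the upstream match at rpl-36, because these genes share a summit. Matches at a summit shared by ribosomal protein genes are counted for each gene. At rpl-11.1 element 1 and its reverse complement overlap, so the same site is counted once on each strand, at 64.5 and 60.5 bp. Where a summit is shared with a divergent neighbour, the gene side refers to the ribosomal protein gene only.

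**Figure D5:**
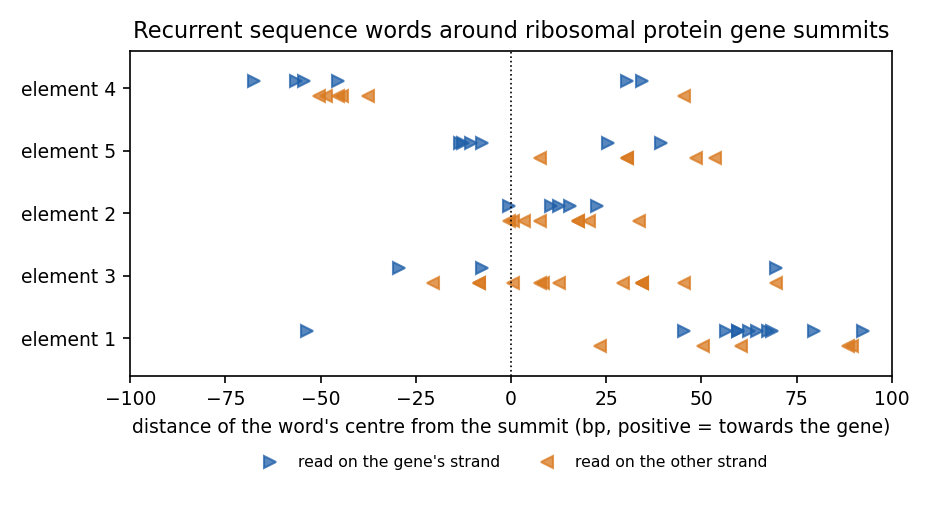
Distance of the centre of each word from the summit (horizontal axis, bp, positive towards the gene) for the 5 recurrent words, 1 row per word and 1 mark per match and ribosomal protein gene; the direction of the mark gives the strand. Element 4 gathers upstream of the summit, element 2 on it and element 1 on the gene side.

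The words were also present in promoters without a summit. ATACTCAG was in the promoter window of 13 ribosomal protein genes, all of them bound, and in that of 172 other genes, of which 34 (19.8%) were bound. The genes with element 2 at their summit included rpl-4, rpl-6, rpl-13, rpl-32, rps-0, rps-3, rps-20 and rps-22. GGCCTAAA was in the windows of 23 ribosomal protein genes, 19 of them bound, and of 332 other genes, 59 of them bound (17.8%). GCGAGACC was in the windows of 23 ribosomal protein genes, 16 of them bound, and of 487 others, 137 of them bound (28.1%). CGATTTAC had 13 bound of 17 among ribosomal protein genes and 80 of 507 (15.8%) among others, and TACGGTAA had 11 of 13 and 73 of 443 (16.5%). As the words were picked at bound ribosomal summits, the first share in each pair was partly fixed by that choice. Any of the 5 was in the window of 48 of the 57 bound ribosomal protein genes (84.2%) and of 10 of the 24 unbound ones (41.7%). This difference was also partly fixed by picking the words at bound genes, so it does not show that the words go with binding.

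Other sequence features were counted as well. The recurrent words were kept for their difference between ribosomal and other summits, so these features cannot be ranked against them. GC content within 50 bp of the summit had a median of 50.5% at ribosomal summits and 47.5% at other promoter summits, and over whole promoter windows the medians were 35.8% and 34.7%. The core CTTTG, which sequence-specific HMG boxes recognise, was in 67.9% of ribosomal promoter windows and in 77.3% of all protein-coding ones. Within 100 bp of the summit it was at 14.8% of ribosomal summits and at 30.8% of the others, and ACAAAG was at 3.7% and 9.64%. TATAAA was in 56.8% of ribosomal promoter windows and in 62.6% of all. GAGAG was in 72.8% of ribosomal promoter windows and in 63.5% of all, but within 100 bp of the summit the order was the other way, with 35.2% of ribosomal and 60% of other summits. Runs of AAAAAA were in 98.8% of ribosomal promoter windows and 95.4% of all, and at 70.4% of ribosomal and 53.9% of other summits. ACAAAG was in 22.2% of ribosomal promoter windows and 35.9% of all, and TATAAA was at 11.1% of ribosomal and 14.3% of other summits. All of these were searched on both strands.

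Lists of other genes that serve the ribosome, set by symbol, gave shares that ranged widely. The shares of all protein-coding genes given above, 9.68% in the conservative set and 6.91% and 13.3% in replicates 1 and 2, apply here too. The 3 genes for ribosomal or ribosome-bound proteins that the symbol rule leaves out were all bound. They were ubl-1, which encodes a ubiquitin-like protein joined to a ribosomal protein, ubq-2, which encodes ubiquitin joined to one, and rack-1, a scaffold on the small subunit. Their summits lay at -189, -496 and -216 bp, with signals of 186, 141 and 116. Summits of both ubl-1 and ubq-2 had element 1 within 100 bp. All 3 were in replicate 2's list and 1 in replicate 1's. Of 16 ribosome assembly genes found in the annotation 7 were bound, 5 in replicate 1 and 6 in replicate 2, among them rrp-1 with a signal of 564 at -324 bp and fib-1. Of 38 translation factor genes 13 were bound (34.2%), with 10 and 17 in replicates 1 and 2 and a median distance of -187 bp. The strongest were eef-1G with a signal of 2183 at -28 bp and iff-2, an eIF5A gene, with 1111 at -63 bp. Of 70 genes for mitochondrial ribosomal proteins 15 were bound (21.4%), with 14 and 16 in replicates 1 and 2 and a median of -189 bp, the strongest being mrps-7 with a signal of 2609 at -171 bp. Of 6 genes for RNA polymerase I or subunits it shares, rpac-19 alone was bound in the conservative set, with a signal of 149, and rpoa-1 was added in replicate 2's list, at rank 4748. With so few genes, these counts are near the share of all genes. Of the 6 regulators of ribosome synthesis in the list (ncl-1, let-363, rsks-1, daf-15, raga-1 and mml-1), 0 were bound in the conservative set, and ncl-1 was bound in replicate 2's list.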

How the data were processed

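Peak lists of 2 ChIP-seq samples of 1 group were analysed. Per the labels they use the ce11 build, and all 137469 peaks of the lists used lay within the chromosome lengths of the WBcel235 reference, which is the same assembly. The aligner and peak caller, not given in the sources used here, could affect summit positions and peak numbers. Control libraries were not analysed here. Of the antibody, the labels give 2 accounts: anti-GFP in the description and hmg-1.2 in the antibody field.

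The signal in the deposited lists is the authors' own peak strength. The deposited score is capped at 1000 and comes from the irreproducible discovery rate, of which the ranked lists hold a deposited −log10 value. The other deposited columns used were peak positions and summit offsets. The lists give no read totals, so depth is unknown and no interval that needs it is given. No test was made, since there is 1 group and genes are not replicates.

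With Python 3.11.15 and numpy 2.4.6, each summit was assigned to every gene in whose promoter window it lay (500 bp upstream to 100 bp downstream). Peaks were ranked by signal. The assignment was tested on simulated peaks. Conservative peaks numbered 4149, those of replicate 1 3340 and those of replicate 2 5333. Words of 8 bases in at least 9 of the ribosomal windows were ordered by their count times the log2 ratio of their shares, and the first 5 were kept. A word was passed over when most of its matches lay within 20 bp of one already kept. Every member may be named. Full values are given for the 12 bound members of highest signal, the 3 lowest, the rla- genes, symbol pairs and pairs that share a summit. The members and lists were chosen with earlier results of these data known.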

Additional observations from a re-analysis of the deposited data

How the results depend on the processing

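The 6 results recomputed were the counts of all members, of large-subunit and of small-subunit members bound, the count bound through a shared summit, the median summit distance and the median signal. A count was taken as kept when it was within 1.5 times the reported one. A median was taken as kept when it moved by less than the SD between the replicates, which was 1.77 bp for the distance and 166 for the signal. The signal SD comes from medians of 135 and 369 in lists whose scales differ, so it does not measure replicate spread. Signal values counted as kept by it therefore say little. By these limits 49 of 60 recomputed values were kept and 11 moved. The limit for distances is tight and that for counts is wide: the 50% of peaks with the highest signal gave 44 members bound and the nearest 5′ end alone gave 39, both counted as kept. None changed direction. With the window of 250 bp upstream to 50 bp downstream, 16 members were bound, 9 of the large subunit and 7 of the small, 5 of them through a shared summit, and the median distance was -178.5 bp. A window that ends at 250 bp cannot hold summits further out. With each summit given to the nearest 5′ end alone, 16 small-subunit members were bound, the median distance was -283 bp, and by construction 0 members shared a summit. Using 1 replicate's own list gave 53 to 63 members bound, 30 to 37 of the large subunit, 23 to 26 of the small and 29 to 36 through a shared summit. The median distance was then -290 to -287.5 bp and the median signal 135 to 369, on scales that differ between lists. Without the members within 200 bp of a same-strand upstream gene, a setting chosen after seeing the data, 55 were bound.

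The depth of the libraries is unknown, so a gene without a peak is not shown to be unbound. The replicates' lists differ in length, and 51 members were bound in both. Annotated 5′ ends were not compared with measured transcription starts. Whole animals were used, so the tissue behind a peak is unknown. No control library was used here, so the level of background at strongly transcribed genes was not tested.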
